A study of Rattus norvegicus with 3 samples.

Results

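Cardiac fibroblasts secrete cytokines, growth factors and matrix proteins, and medium in which they have grown carries these products to other cells without cell contact. The comparison described here sets cardiomyocytes kept in medium conditioned by cardiac fibroblasts against cardiomyocytes kept in fresh culture medium. All cultures were cardiomyocytes of fetal Wistar rats, isolated by enzyme digestion, plated for 48 hours and then treated for 24 hours, and no genetic change or further agent is named for any of them. A further culture, kept in medium conditioned by skeletal myoblasts, served here only as a reference point for each gene. The age of the fetuses, the pooling of hearts, the removal of other heart cells and the preparation of the conditioned media are not stated in the labels.

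Each medium was measured on 1 array, so the comparison uses 2 of the 3 arrays and covers all 14218 genes that could be named from probe sets with a single gene symbol. These genes were not selected by any measured value, but the gene lists and groups used below were chosen with earlier results of these data known. A gene's value is a log2 level relative to the median of the 3 arrays, in which 0 is the middle array, and a difference of 1 is 2-fold. No replicate exists for either medium, so no difference below has an error, a test or a p-value, and each describes these arrays only. Centring each gene on its own median removes its absolute level, so the label cardiomyocyte could not be checked against the brightness of its defining markers, and levels of different genes cannot be compared.

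In fibroblast-conditioned medium 15 of 31 chemokine genes, 29 of 38 macrophage markers, 5 of 6 CCN genes and 10 of 32 smooth muscle and pericyte markers were at least 2-fold higher, against 4.26% of all genes. At least 2-fold lower, against 2.60% of all genes, were 19 of 42 endothelial markers, 18 of 55 genes of fatty acid oxidation, 8 of 31 cardiomyocyte markers and 9 of 42 interferon-response genes. The highest gene was Grem1, whose secreted product gremlin binds and blocks bone morphogenetic proteins, at 7.48, and the lowest was Emcn, which encodes the endothelial sialomucin endomucin, at -5.65. In the interleukin-1, interleukin-6 and TGF-beta families 9 of 23 measured ligands and 1 of 16 measured receptors passed 2-fold above. These families were chosen with earlier results of these data known. In the order named, the ligands that passed were 3 of 5, 1 of 7 and 5 of 11. Outside these families receptors differed, with 3 of 5 measured Toll-like receptors and 1 of 17 measured chemokine receptors past 2-fold above.

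At a threshold of 2-fold, 605 genes (4.26%) were higher and 369 (2.60%) lower, 974 (6.85%) in all, and 2261 genes differed by exactly 0. The middle of the distribution was narrow, with quartiles at -0.16 and 0.17, a 5th percentile of -0.71 and a 95th percentile of 0.91. At least 4-fold differences were found for 162 genes higher and 78 lower, and at least 16-fold differences for 16 higher and 7 lower. The genes nearest the threshold were Olr59 (1.0001) just above and Myh2 (0.9993) just below 2-fold higher, and Arrdc4 (-1.0011) just inside and Fat4 (-0.9999) just outside 2-fold lower, so the boundary separates values that are almost equal.

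**Figure D1:**
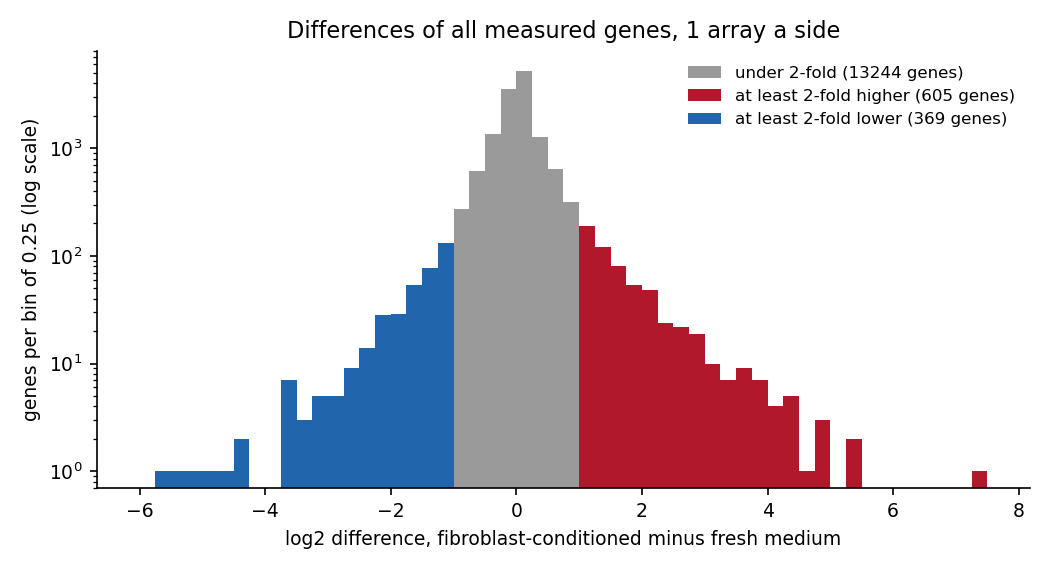
Number of genes (log axis) by log2 difference between fibroblast-conditioned and fresh medium, in bins of 0.25, for all 14218 genes on 1 array a side. The 605 genes at least 2-fold higher (red) reach 7.48, and the 369 at least 2-fold lower (blue) reach -5.65.

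The fibroblast-medium array stood apart from the others over the whole table. The SD of its centred probe set values was 0.43, against 0.21 for fresh medium and 0.19 for myoblast medium, and 1166 of its values were at least 1 in size, against 245 and 168. The 42 probe sets for added control transcripts differed by -0.68 to 0.59 between fibroblast-conditioned and fresh medium, which is the only measure of technical error at hand. Probe sets that sample 3 positions along 1 transcript showed no gradient for GAPDH (-0.03 at the 5′ end and -0.04 at the 3′ end). For beta-actin they rose slightly (-0.03 at the 5′ end, 0.02 in the middle and 0.19 at the 3′ end), inside the range of the added controls. For hexokinase the rise was in the same direction and larger, with the 5′ and middle probe sets at -1.13 and -0.95 and the 3′ probe set at -0.28. The part of these array-wide features in the results was not tested.

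**Figure D2:**
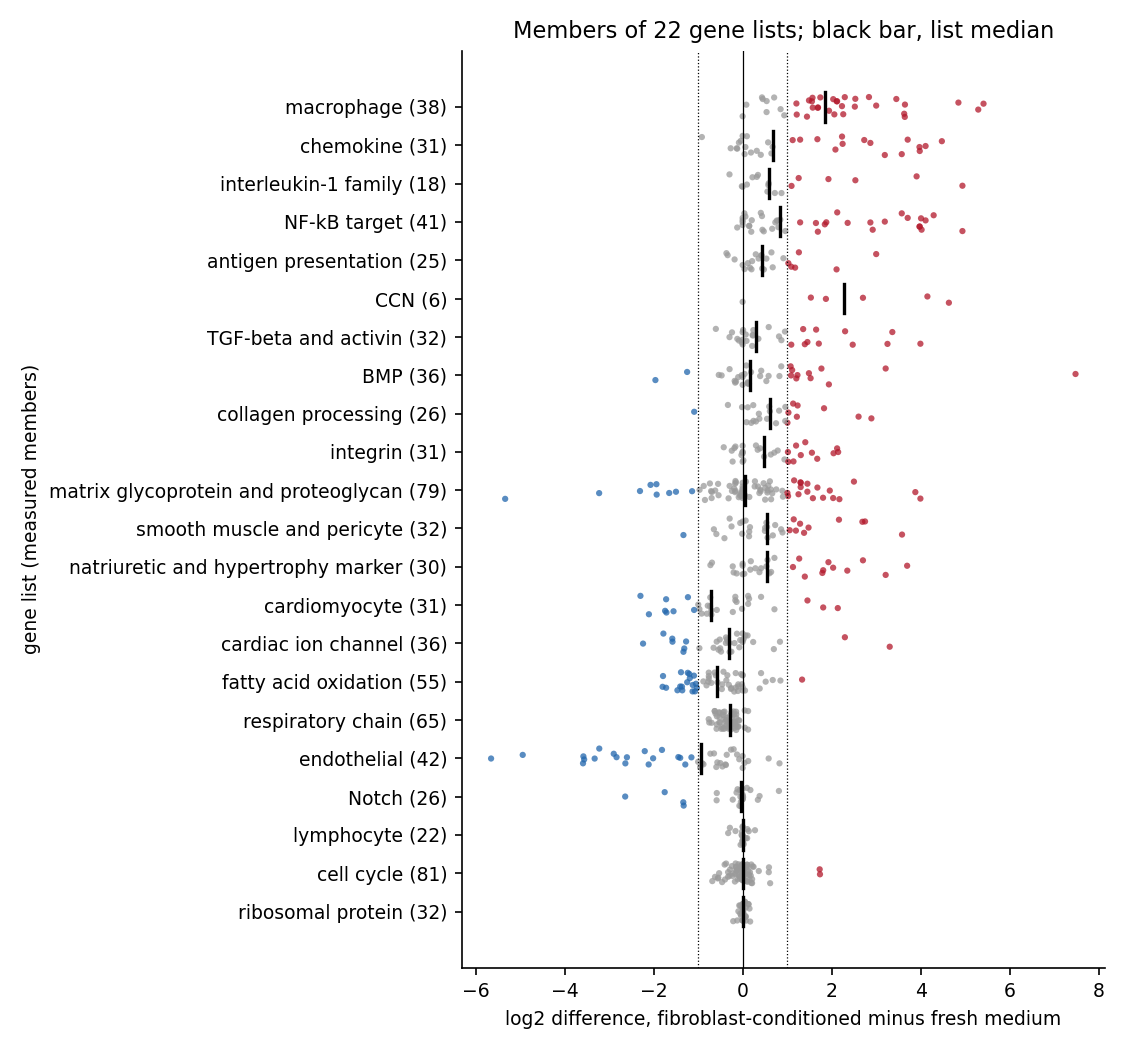
Log2 difference between fibroblast-conditioned and fresh medium for each measured member (point) of 22 gene lists, with the number of members in brackets, the list median as a black bar and 2-fold as dotted lines (red higher, blue lower). Macrophage and CCN genes lie to the right with medians of 1.84 and 2.29, endothelial genes to the left with a median of -0.93, and lymphocyte, ribosomal protein and most cell cycle genes within 2-fold.

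Chemokines are small secreted proteins that attract leukocytes along a gradient, and they act through G-protein-coupled receptors on the attracted cells. Of 31 measured members of the chemokine list, 15 were at least 2-fold higher and 0 lower by as much, and the median was 0.67, against 0 over all genes. The chemokine median was 1.12 with the probe set of the widest range for each gene and 1.65 restricted to probe sets valued on 2 arrays. Both settings favour values away from 0 by their construction. Among CC chemokines 9 of 16 passed 2-fold, and among CXC chemokines 5 of 13. Ccl3, a ligand that recruits monocytes, had values of -0.04 in fresh medium, 0.00 in myoblast medium and 3.94 in fibroblast medium, a difference of 3.98. Ccl4, its close relative, stood at 0.00, -0.52 and 3.97 on the same arrays. The fibroblast-medium array alone was high for both, and the other arrays lay close together.

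Ccl2, the main monocyte attractant, had values of 0.00 in fresh, -1.21 in myoblast and 3.58 in fibroblast medium. For Cxcl1, which attracts neutrophils, the corresponding values were 0.00, -1.18 and 3.71. In these genes the fresh-medium array was the middle array and myoblast medium lay below it, so the differences from fresh medium were 3.58 and 3.71. The remaining ligands past 2-fold included Ccl20 (3.20), Cxcl2 (2.87), Ccl6 (2.73), the membrane-anchored Cx3cl1 (2.25), Cxcl6 (2.23), Cxcl16 (2.09) and Ccl19 (1.12). Ccl27, at 1.68, was a different case, since it was low in fresh medium (-1.68) and at 0.04 and 0.00 in both conditioned media. Cxcl3 was at 1.29, the average of 5 probe sets between 0.00 and 2.77. Cxcl12, the ligand of Cxcr4, was at 0.65, and its 3 probe sets ran from 0.01 to 1.30.

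Of 17 measured chemokine receptors, 1 was higher and 1 lower by 2-fold, and 7 had no value on any array. Cxcr4, the receptor for Cxcl12, had values of 1.52 in fresh, 0.00 in myoblast and -1.06 in fibroblast medium. Fibroblast medium was thus the low array and fresh medium the high one, and the 3 probe sets of the gene gave differences of -3.03 to -2.27 around a mean of -2.58. Ackr4, a scavenging receptor that removes chemokines, was higher at 1.59. Ccr1 and Ccr2, receptors of monocytes, were at 0.38 and 0.21.

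The interleukin-1 family starts inflammatory responses through receptors that signal by Myd88, and its ligands are released in active form after cleavage or cell damage. Among its 5 measured ligands 3 were at least 2-fold higher, among its 5 measured receptors 1 was. Il1a had values of -0.25 in fresh, 0.00 in myoblast and 3.66 in fibroblast medium, and its 2 probe sets gave differences of 3.20 and 4.62. Il1b stood at 0.00, -0.13 and 4.94 on the same arrays and Il18 at 0.00, -0.63 and 2.53. For all of these ligands the fibroblast array was far above the other two. The natural antagonist Il1rn was at 0.56 and the decoy receptor Il1r2 at -0.02. Il1rl1, the receptor for interleukin-33, had a mean of 1.93 from probe sets at 0.27 and 3.59, which disagreed in size. The adaptor Myd88 was at 1.26 and Irak3, an inhibitor of the same pathway, at 1.10.

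Il6, a cytokine that signals through Il6st and Stat3, had values of 0.00, 0.00 and 4.29 in fresh, myoblast and fibroblast medium. It was the only one of 7 measured interleukin-6 family ligands past 2-fold, and 0 of 5 measured receptors of the family passed. Il6st was at 0.66, Stat3 at 0.56 and the feedback inhibitor Socs3 at 0.67. In the tumour necrosis factor family 5 of 28 members were at least 2-fold higher. Tnfrsf12a, the receptor for the cytokine TWEAK, was at -1.12 in fresh, 0.00 in myoblast and 2.01 in fibroblast medium, a difference of 3.13, and its ligand Tnfsf12 differed by 0.86. The decoy receptor Tnfrsf11b differed by 2.67 and Tnfsf13 by 1.89. Tnf itself had a mean of 0.77 from probe sets at -0.13 and 1.66, so its value depended on the probe set.

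Among members of the NF-kB and Toll receptor list, the receptors showed larger differences than the transcription factors. Of 5 measured Toll-like receptors 3 were at least 2-fold higher, with Tlr2, which senses bacterial lipoproteins, at 2.72 and the endosomal RNA sensors Tlr7 and Tlr8 at 2.05 and 1.24. None of 4 measured NF-kB subunits passed 2-fold, although all 4 were above 0, with Nfkb2 highest at 0.96. The inhibitors, which are themselves transcribed in response to NF-kB, ranged up to 0.85 for Nfkbia, and 0 of 8 passed 2-fold. The kinases Map3k8 and Ripk2 were both at 1.58. Among 41 measured targets of NF-kB, 19 passed 2-fold above and 0 below, around a median of 0.85. That median was 1.65 with the probe set of the widest range and 1.66 restricted to probe sets valued on 2 arrays, settings that favour values away from 0. Saa3, an acute phase serum amyloid gene, was at 4.01, and the leukocyte adhesion receptors Icam1 and Vcam1 at 2.92 and 2.13.

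Promoter sequence, which the array values did not use, was searched for NF-kB sites. NF-kB dimers bind sites of about the form GGGNNTTCC, and a form of 10 bases with 1 more T was added to the search after the promoters had been seen. Both were sought on both strands of the 250 bases before the start site in the RefSeq promoter table of build GRCr8. The windows below belong to 5 higher members of the NF-kB target list, chosen because they hold a match, shown in capitals. These windows are written along the gene's own strand, with the short form for Ccl20, Cxcl2 and Vcam1 and the longer form for Il6 and Cxcl1. Their positions are chr9:91837030-91837118 on the plus strand for Ccl20, and on the minus strand chr14:17467280-17467368 for Cxcl2, chr2:206742828-206742916 for Vcam1, chr4:5894594-5894683 for Il6 and chr14:17479374-17479463 for Cxcl1.
Ccl20: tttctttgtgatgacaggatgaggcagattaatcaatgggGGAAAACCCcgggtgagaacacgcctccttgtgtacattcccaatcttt
Cxcl2: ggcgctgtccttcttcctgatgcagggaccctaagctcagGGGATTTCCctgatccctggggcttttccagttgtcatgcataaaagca
Vcam1: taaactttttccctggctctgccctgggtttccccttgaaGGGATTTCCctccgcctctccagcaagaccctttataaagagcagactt
Il6: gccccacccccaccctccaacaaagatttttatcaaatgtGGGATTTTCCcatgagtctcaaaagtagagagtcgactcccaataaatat
Cxcl1: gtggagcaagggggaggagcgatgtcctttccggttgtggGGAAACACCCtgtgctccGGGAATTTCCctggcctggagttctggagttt

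The short form was present in 5.16% of all 27457 promoters and in 5.91% of the 11734 promoters of measured genes. It was present in 5.98% of the 468 promoters of genes at least 2-fold higher and in 5.56% of the 288 promoters of genes at least 2-fold lower. On the NF-kB target list it was present in 3 of the 14 promoters of higher members and in 6 of the 27 of all measured members. The longer form was present in 1.28% of all promoters and in 1.51% of those of measured genes. It was present in 1.92% of those of higher genes (9 of 468) and 0.347% of those of lower genes (1 of 288). It was present in 4 of the 14 promoters of higher list members, among them Ccl20 and Cxcl2, where both forms overlap. Of all measured list members 8 of 27 held it. Within the list, neither form was more common among higher members than among all measured members. Over all higher genes the short form was thus about as common as over all promoters. The list was assembled from genes known for NF-kB control, so its share is no independent evidence. A match is a run of letters in this window and not a measured binding site.

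Prostaglandins are lipid mediators made from arachidonic acid, which phospholipases release from membranes and cyclooxygenases convert. Of 35 measured members of the prostaglandin and leukotriene list 5 were at least 2-fold higher and 0 lower, with a median of 0.08, and of 9 prostanoid synthesis enzymes 3 were higher. Pla2g4a, the cytosolic phospholipase A2, had values of -0.68 in fresh, 0.00 in myoblast and 1.35 in fibroblast medium, a difference of 2.03. Ptgs2, the inducible cyclooxygenase, was at -0.35, 0.00 and 3.67, a difference of 4.02. The prostacyclin synthase Ptgis differed by 1.97 and the thromboxane synthase Tbxas1 by 1.67, whereas Ptgds, the prostaglandin D synthase, was at -0.62. Of 6 measured prostanoid receptors 1 passed 2-fold, Ptger3, at 2.13 from probe sets at 0.93 and 3.33.

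**Figure D3:**
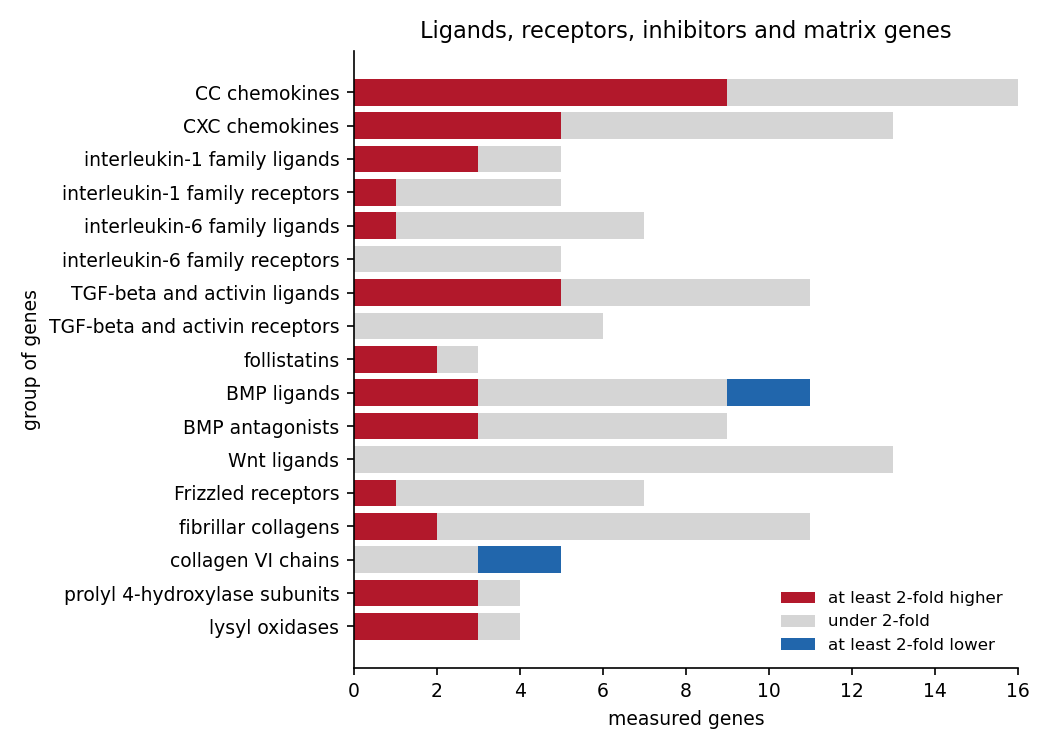
Number of measured genes at least 2-fold higher (red), under 2-fold (grey) and at least 2-fold lower (blue) in fibroblast-conditioned against fresh medium, in 17 groups by role. Ligands of the interleukin-1 and TGF-beta families have red bars of 3 of 5 and 5 of 11 genes, and the TGF-beta and activin receptors have none of 6.

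Markers of macrophages moved with these inflammatory genes on the same array. Of 38 measured macrophage markers 29 were at least 2-fold higher and 0 were below 0. The list median was 0 on the fresh-medium array, -0.32 on the myoblast array and 1.84 on the fibroblast array. Differences ran from 0 to 5.41, and 1 marker had no value on any array. Ctss, a lysosomal protease of antigen-presenting cells, had values of 0.00, -0.33 and 3.00 in fresh, myoblast and fibroblast medium, and Trem2 had values of 0.00, -0.17 and 2.84. The highest were Adgre1 at 5.41, Fcgr2b at 5.30 and Lyz2 at 4.85. Aif1 had a mean of 1.21 from probe sets at -0.21 and 2.62. The antigen presentation list had 6 of 25 members at least 2-fold higher, with the peptide-loading gene RT1-DMa at 2.11, and the transcription factor Irf8 stood at 1.45. The macrophage growth factor receptor Csf1r was at 1.49, its ligand Csf1 at 0.48 and its other ligand Il34 at -0.31.

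Markers of other leukocytes stayed within 2-fold. Of 22 measured lymphocyte markers 0 passed 2-fold, with values from -0.32 to 0.28, and of 19 granulocyte and mast cell markers 0 passed, with values from -0.23 to 0.69. In those lists 6 and 7 members had no value on any array. In bulk RNA a larger number of cells of a type and more RNA per cell cannot be told apart, and the same holds for fewer cells and less RNA. The part of the macrophage markers in the higher cytokine and chemokine values was not tested.

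The interferon-response list, whose genes act against viruses, went the other way. Of its 42 measured members 9 were at least 2-fold lower and 1 was higher, Irf8, with a median of -0.14. The list median was 0.10 on the fresh-medium array, -0.01 on the myoblast array and 0 on the fibroblast array. By these medians fresh medium was the highest array, and fibroblast medium was not the lowest. Myoblast minus fresh medium, a comparison that shares the fresh-medium array, had a median of -0.21 and 5 members at least 2-fold lower. Mx2, an antiviral GTPase, was at -1.52, Ifi44l at -1.25, the ubiquitin-like modifier Isg15 at -1.10 and Oas1a, which activates RNA cleavage, at -1.10.

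Complement and protease genes differed in both directions, with 4 of 33 complement genes at least 2-fold higher and 2 lower. C5ar1, the receptor for the complement peptide C5a, had values of 0.00, -0.76 and 3.07 in fresh, myoblast and fibroblast medium. C3, the central complement component, was at 1.65, and Serping1, the inhibitor of the first complement complex, at -1.19. Cd93 had a mean of -1.61 from probe sets at -3.22 and 0.00. Among 17 measured matrix metalloproteases 5 were higher and 1 lower by 2-fold, led by the macrophage elastase Mmp12 at 3.08 and the stromelysin Mmp3 at 2.36, with Mmp15 at -1.76. Of the tissue inhibitors of these proteases, Timp1 was at 1.95 and Timp4 at -1.08. Tfpi2, a serine protease inhibitor, was at 2.68, and tissue factor, F3, at 1.10.

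Arginine is a substrate both of nitric oxide synthases and of arginase, and 1 enzyme of each kind differed by more than 2-fold, in opposite directions. Of 35 measured genes of nitric oxide and arginine metabolism 3 were higher and 2 lower, with a median of 0. Arg1 had values of 0.00, -0.18 and 3.70 in fresh, myoblast and fibroblast medium. Nos3, the endothelial nitric oxide synthase, had values of 0.77, 0.00 and -2.79, a difference of -3.56. Fibroblast medium was the highest array for the former and the lowest for the latter. Ass1, which regenerates arginine from citrulline, was at 2.80, Ddah1, which degrades inhibitors of nitric oxide synthase, at 1.91, and Gamt, an enzyme of creatine synthesis, at -2.30. Arg2, the other arginase, was at 0.02, Nos2 at 0.04 and Nos1 at -0.10. The lower Nos3 accompanied lower values of other endothelial markers, described below, and their part in it was not tested.

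Ligands of the TGF-beta superfamily signal through paired serine-threonine kinase receptors and are held in check by latency proteins and secreted antagonists. Of 11 measured TGF-beta and activin ligands 5 were at least 2-fold higher, and of 6 measured receptors 0 were. Inhba, the activin A subunit, had values of -0.80, 0.00 and 2.45 in fresh, myoblast and fibroblast medium, with a difference of 3.20 and 3.31 in its 2 probe sets. Follistatin, Fst, which binds and neutralises activin, had values of 0.00, -0.32 and 3.36. The related Fstl3 stood at -1.50, 0.00 and 0.97, a difference of 2.47. The ligand and its antagonists were thus highest on the same array. Tgfb3 was at 1.65, Inhbb at 1.36 and Gdf15 at 1.40, of which Gdf15 was low in fresh medium (-1.40) and near 0 in both conditioned media. Among targets and feedback genes, Pmepa1 was at 1.71, Tgif1 at 1.09 and Smad7 at 0.59, and the latent TGF-beta binding protein Ltbp1 was at 1.46.

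Of 36 measured members of the BMP list 11 were at least 2-fold higher and 2 lower, with a median of 0.17. Restricted to probe sets valued on 2 arrays, which favours values away from 0, the median was 0.78. Grem1 had values of -0.75 in fresh, 0.00 in myoblast and 6.73 in fibroblast medium. Of 9 measured antagonists 3 passed 2-fold, and besides Grem1 these were Bmper at 1.94 and Nog at 1.11. Ligands went both ways, with Bmp2 at 1.77, Bmp4 at 1.49 and Bmp3 at 1.09 above, and Gdf10 at -1.96 and Bmp5 at -1.25 below. Of the 4 Id genes, which are transcribed in response to BMP signals, 3 were past 2-fold. Id1 (1.21) and Id3 (1.23) were represented by 1 probe set each, and Id4 (1.08) by 4 that ran from 0.70 to 1.66. Hamp, the hepcidin gene and another BMP-responsive gene, was at 3.21. In the Wnt list 3 of 48 members were higher and 1 lower, and 0 of 13 Wnt ligands passed 2-fold. The members that passed were Frzb (2.44) and Sfrp2 (-1.26), both secreted Wnt antagonists, the intracellular inhibitor Nkd2 (2.18) and the receptor Fzd2 (1.24).

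CCN proteins are matricellular, that is, secreted into the matrix to regulate cells instead of building it. All but 1 of the 6 family members were at least 2-fold higher, and Ccn6 had no value on any array. Ccn5 had values of -0.37, 0.00 and 3.79 in fresh, myoblast and fibroblast medium, and Ccn1 had values of -0.33, 0.00 and 1.54. For both the fibroblast array was high and the other arrays differed by less than 0.68, the largest difference of the added controls. Ccn3, the highest of the family, was at 4.64 and Ccn4 at 1.53. Ccn1 and Ccn2 are also targets of the coactivator YAP, and of 26 measured YAP targets 6 were at least 2-fold higher and 0 lower, among them Crim1 (2.30), Ankrd1 (1.79) and Nt5e (1.20).

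Among collagen chains 5 of 41 were at least 2-fold higher and 3 lower, with a median of 0. Of 26 measured genes of collagen processing 8 were higher by 2-fold and 1 was lower, with a median of 0.61. P4ha3, a prolyl 4-hydroxylase subunit, had values of -0.38, 0.00 and 2.23 in fresh, myoblast and fibroblast medium. Of the 4 subunits of this enzyme 3 passed 2-fold, and so did 3 of 4 measured lysyl oxidases, with Loxl1 at 1.22 and Loxl2 at 1.01 from probe sets at 0.86 and 1.16. Plod2, the lysyl hydroxylase of stable cross-links, was at 1.83. Fibrillar collagen chains passed 2-fold in 2 of 11 cases, Col11a1 at 2.04 and Col24a1 at 1.35, and the 3 probe sets of Col11a1 ran from 0.49 to 3.13. All 5 measured chains of collagen VI were below 0, with Col6a6 at -5.22, Col6a3 at -1.09 and Col6a1 at -0.84. The short-chain collagens Col8a1 and Col8a2 were at 3.92 and 2.26.

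The matrix glycoprotein and proteoglycan list had 18 of 79 members higher and 9 lower by 2-fold, with a median of 0.05, and the lowest was Sparcl1 at -5.34. Elastic fibre genes were divided, with 7 of 17 higher and 4 lower. Above 2-fold were Fbln5 (1.96), Fbln2 (1.81) and Eln, the elastin gene itself (1.31), and below it were the microfibril genes Mfap2 (-2.31) and Fbn2 (-1.94). Tnc, a matrix protein of injured tissue, was at 2.03 and Smoc1 at 2.50. Sned1 was at -3.22, mostly from a high fresh-medium array (2.84, against 0.00 in myoblast and -0.38 in fibroblast medium). The muscle laminin chain Lama2 was at -1.50.

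Integrins are the receptors through which cells hold this matrix. Of 15 measured alpha subunits 7 were at least 2-fold higher, and of 7 beta subunits 2 were, with 0 lower in either group. Those known from leukocytes were Itgal (2.15), Itgb2 (2.12) and Itgam (1.56). Those known as matrix receptors were the collagen-binding Itga11 (2.04) and Itga1 (1.68), Itgav (1.31), the laminin receptor Itga7 (1.14), Itgb5 (1.03) and Itga8 (1.02). Itgav had values of -0.63, 0.00 and 0.67 in fresh, myoblast and fibroblast medium, and each of its 3 probe sets passed 2-fold, from 1.10 to 1.48.

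**Figure D4:**
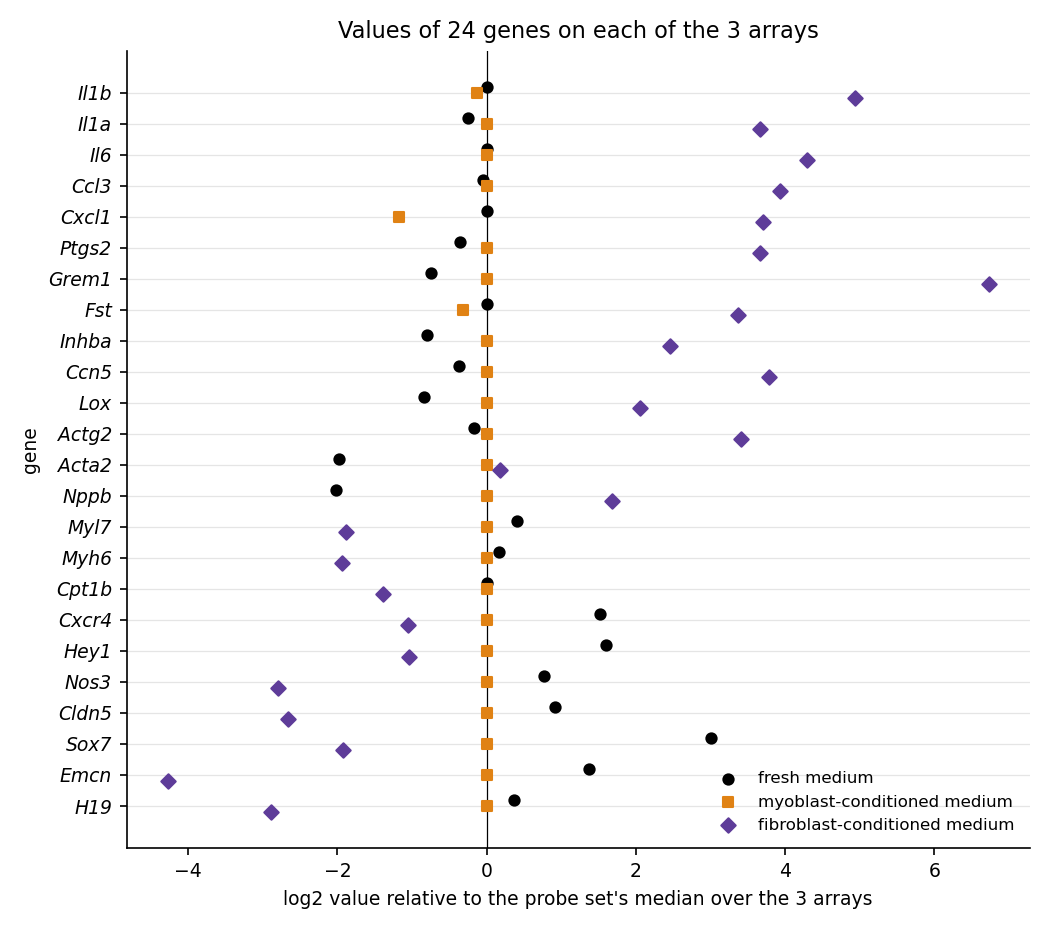
Centred log2 value of 24 genes on the arrays of fresh (circle), myoblast-conditioned (square) and fibroblast-conditioned medium (diamond), 1 array each. The fibroblast array is the highest for genes from Il1b to Nppb and the lowest from Myl7 to H19, and for Acta2 and Nppb fresh medium lies near -2.

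Of 32 measured smooth muscle and pericyte markers 10 were past 2-fold above and 1 below, with a median of 0.54. Actg2, the enteric smooth muscle actin, had values of -0.17, 0.00 and 3.41 in fresh, myoblast and fibroblast medium. Acta2, the alpha smooth muscle actin, had values of -1.98, 0.00 and 0.18, and Cnn1, the calponin gene, had values of -2.69, 0.33 and 0.00. In the latter genes fresh medium was low and the conditioned media lay close together, unlike in Actg2. Myh11, the smooth muscle myosin heavy chain, was at 0.53 from probe sets at 0.04 and 1.03, and Abcc9, a channel subunit found in pericytes and in heart muscle, was at -1.33. Fibroblast markers went both ways, with 4 of 29 higher, 3 lower and a median of 0.08.

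Many contractile genes carry a CArG box, the site of serum response factor, and 1.5% of all promoters in the table held one in the 250 bases before the start. Of the 7 smooth muscle list members that were at least 2-fold higher and had a promoter in the table, 1 held one, Cnn2, at 1.06. Its window is shown with the box in capitals, at chr7:10370334-10370423 on the minus strand of GRCr8, and the box reads the same on both strands.
Cnn2: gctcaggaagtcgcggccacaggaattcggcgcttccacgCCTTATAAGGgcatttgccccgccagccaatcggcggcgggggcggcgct
Of the promoters of all higher genes 1.28% held a CArG box, close to the share over all promoters.

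Of 31 measured cardiomyocyte markers 8 were at least 2-fold lower and 3 higher, 23 were below 0 and the median was -0.70. The higher ones reached 2.14 and included Csrp3 and Tcap, given below with the Z-disc proteins. Ckm and Ckmt2, the muscle and mitochondrial creatine kinases, were at -1.71 and -1.74. The markers moved on the same array as the channel, calcium and metabolic genes that follow, and their part in those values was not tested. Of 7 measured myosin heavy and light chains 3 were at least 2-fold lower and 0 higher. Myl7, the atrial light chain, had values of 0.41, 0.00 and -1.89 in fresh, myoblast and fibroblast medium, and Myh6, the alpha myosin heavy chain, had values of 0.16, 0.00 and -1.94. Myh7, the beta chain, stood at -0.71, 0.72 and 0.00, so the heavy chains differed in opposite directions, at -2.11 and 0.71. All but 1 of 5 troponins were below 0, and Tnni3 was at -1.09. Z-disc proteins, which anchor and sense tension on the filaments, had 5 of 14 members higher and 2 lower, with Pdlim1 (1.83), Csrp3 (1.81), Tcap (1.46) and Pdlim3 (1.44) against Mypn (-1.22). Mybphl, an atrial myosin-binding protein, was at -1.82.

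Ion channel genes were lower more often than higher, with 7 of 36 at least 2-fold lower and 2 higher. Kcne1, a subunit of the slow delayed rectifier potassium channel, had values of -1.29, 0.00 and 1.01 in fresh, myoblast and fibroblast medium. Scn3b, a sodium channel beta subunit, had values of -0.54, 0.00 and 2.76, with 3.24 and 3.38 in its 2 probe sets. The lower members were led by Kcne3 at -2.24, from probe sets at -3.91 and -0.56, and Kcnh2, the rapid delayed rectifier, was at -1.27. In calcium handling 5 of 39 members were lower and 0 higher, with Dhrs7c, a dehydrogenase of striated muscle, lowest at -4.56. Ryr2, the sarcoplasmic calcium release channel, was at -1.23, and Atp2a2, the calcium pump, at -0.78 over 5 probe sets from -1.35 to 0.00.

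Hypertrophy markers included Nppb, which encodes a natriuretic peptide of strained ventricles, with values of -2.02, 0.00 and 1.68 in fresh, myoblast and fibroblast medium. Rcan1, a calcineurin target, was at 2.03 and Mybpc2 at 2.35 from probe sets at 0.86 and 3.84. Of 35 measured cardiac transcription factors 1 was higher, Ankrd1, and 1 lower, Hey2 (-1.75). Tbx5, Gata6 and Mef2a were at -0.50, -0.51 and -0.52.

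Genes of oxidative metabolism lay mostly below 0, further so in fatty acid oxidation than in the respiratory chain. Of 19 measured enzymes of mitochondrial beta-oxidation all 19 were below 0, and 8 of them by at least 2-fold, around a median of -0.81. Cpt1b, the muscle carnitine palmitoyltransferase that admits fatty acids to mitochondria, had values of 0.01, 0.00 and -1.39 in fresh, myoblast and fibroblast medium. Slc25a20, the carnitine carrier, was at -1.20, Hadh at -1.36, from probe sets at -2.19 and -0.53, and the electron carrier Etfdh at -1.19. The coactivator Ppargc1a was at -1.07, but its 3 probe sets ran from -1.84 to 0.35. Of the citrate cycle and pyruvate list 36 of 43 genes were below 0. Of the respiratory chain list 61 of 65 were below 0 and 0 passed 2-fold, with a median of -0.29. In glycolysis the muscle mutase Pgam2 was at -3.23 and Aldoc at -1.62, and the list as a whole had a median of 0. Pygm, the muscle glycogen phosphorylase, was at -1.59 with all 3 probe sets past 2-fold.

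Endothelial markers were lower on the same array, with 19 of 42 at least 2-fold lower, 0 higher and 36 below 0. The list median was 0.27 on the fresh-medium array, 0 on the myoblast array and -0.54 on the fibroblast array. Of 16 measured endothelial receptors and junction proteins 10 passed 2-fold, and of 9 transcription factors 3 did. Sox7, a transcription factor of the endothelial lineage, had values of 3.01, 0.00 and -1.93 in fresh, myoblast and fibroblast medium. Cldn5, the tight junction claudin, had values of 0.91, 0.00 and -2.67, and Emcn had values of 1.38, 0.00 and -4.28. Fresh medium was the highest array for all of these and fibroblast medium the lowest. Pecam1 was at -2.83, Esam at -2.60 and the connexin gene Gja4 at -2.20. Vwf was at -0.50 and Erg at -0.64, so the difference was not uniform over the list.

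Receptors and ligands of vessel growth differed in both directions, with 3 of 18 measured members of the VEGF and angiopoietin list at least 2-fold higher and 4 lower. Kdr, the main VEGF receptor, was at -1.44, from probe sets at -2.77 and -0.12, and the angiopoietin receptor Tek at -1.40. The ligands Vegfc (2.09) and Angpt1 (1.77) and the coreceptor Nrp2 (1.85) were higher, and Angpt2 was at -2.72. Vegfa was at 0.22. The Notch list, which is shared between arterial endothelium and heart muscle, had 4 of 26 members lower and 0 higher. Hey1 had values of 1.599, 0.00 and -1.04, Notch1 had a mean of -1.33 from probe sets at -1.39 and -1.27, and the modifying enzyme Mfng was also at -1.33. The ligand Jag1 was at 0.82. Whether fewer endothelial cells or less RNA in them goes with these values cannot be told apart.

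Red cell genes were among the lower ones, with 3 of 22 erythroid markers past 2-fold, including Epb41 (-1.65) and Car2 (-1.33) beside Hbb (-4.32). Imprinted genes that are abundant in fetal tissue were lower as well, with H19 at 0.37, 0.00 and -2.89 in fresh, myoblast and fibroblast medium and Cdkn1c at 0.53, 0.00 and -2.07. Of 24 measured imprinted genes 3 passed 2-fold, all lower. Igf2, the neighbour of H19, was at -0.62, the average of 4 probe sets between -2.48 and 0.00.

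Cell cycle genes hardly differed, with 2 of 81 at least 2-fold higher, 0 lower and a median of 0. Both were D-type cyclins. Ccnd1 had values of -0.16, 0.00 and 1.57 in fresh, myoblast and fibroblast medium, with all 3 probe sets past 2-fold, and Ccnd2 had values of -0.79, 0.00 and 0.95. Of 6 subunits of the replication helicase 5 were below 0, and Mki67, a marker of cycling cells, was at -0.53. Of 7 measured cyclin-dependent kinase inhibitors 2 were at least 2-fold higher and 1, Cdkn1c, was lower. Cdkn1a, the p21 gene, was at 2.53, from probe sets at 1.39 and 3.67, and Cdkn2a, which encodes p16 and ARF, at 2.21. Gadd45g was at 1.84 and Gadd45b at 1.32.

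Of 58 measured guidance cue genes 7 were at least 2-fold higher and 4 lower, with a median of 0. Rnd1, a GTPase of plexin signalling, was the highest at 4.30. Of 17 measured semaphorins 3 were higher and 1 lower, with Sema3c at 2.49, Sema4a at 1.58 and Sema6d at -2.39. Bdnf was at 1.94 and Ntf3 at -1.26. The netrin receptor Unc5b was at 1.57 and the ephrin receptor Epha4 at -1.19. Keratins, which mark mesothelium and epicardium, parted, with Krt18 at 3.38 and Krt19 at -1.53, and myoblast medium stood 1.17 and 1.34 above fresh medium for them, a comparison that shares the fresh-medium array. Msln, the mesothelin gene, was at 1.72.

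Agreement between probe sets of 1 gene gives the only internal check. Of the called genes 740 had 1 probe set and 234 had several, and in 99 of the latter every probe set passed 2-fold. In 4 a probe set had the opposite sign. Over all genes with several probe sets the median range between them was 0.28 and the 90th percentile 0.93. Genes with 3 or more probe sets that all passed 2-fold included, above, Rassf4 (2.66), the reticulum membrane protein gene Ckap4 (2.82-fold), the tau gene Mapt (1.46) and Hs2st1 (1.30), and, below, the endothelial repressor Bcl6b (-2.21, 4 probe sets) and the protocadherin gene Pcdh17 (-2.13).

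**Figure D5:**
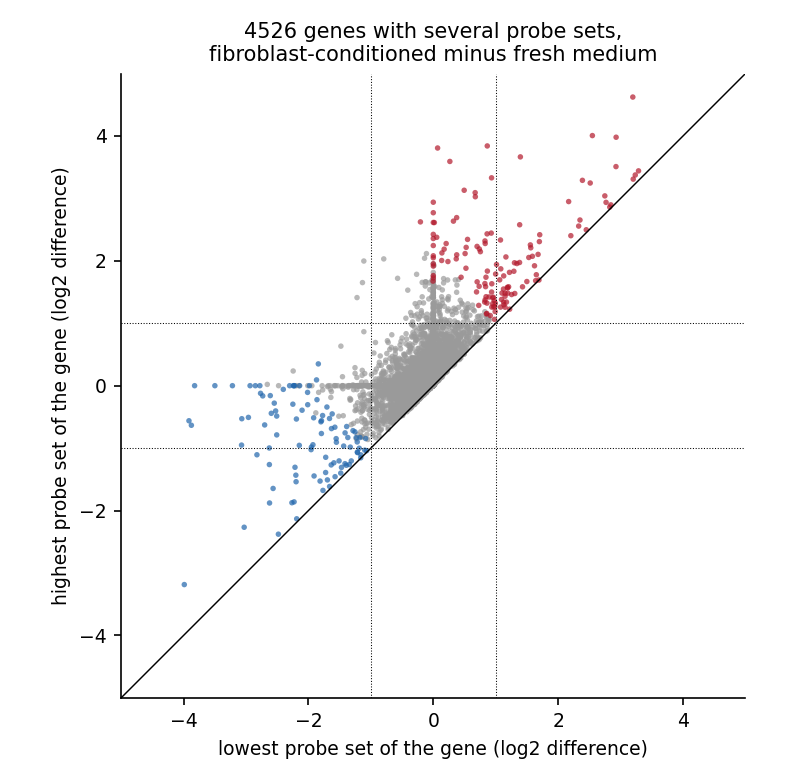
Lowest against highest log2 difference among the probe sets of each of 4526 genes with several, on the diagonal where they are equal, with 2-fold as dotted lines and colour by the gene's mean (red at least 2-fold higher, blue at least 2-fold lower). Points along 0 on an axis are genes with a probe set read as 0, and in 99 of the 234 coloured genes every probe set passes 2-fold.

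A majority of the genes past 2-fold were on none of the 67 lists, 342 of 605 higher and 241 of 369 lower. Among the 40 highest, those on no list were Fcrl2 (3.94), Wfdc1 (3.50), Pkib, a protein kinase A inhibitor (3.28), Igsf6 (3.26) and Tm4sf1 (3.22). Among the 40 lowest, 14 were on no list. They included Tac3, the neurokinin B gene (-3.24), Smim5 (-3.35), Efhd1 (-3.03), the endothelial adhesion receptor Adgrl4 (-2.86), Lsamp (-2.86), Flrt3 (-2.85), Klhl4 (-2.60) and the p38 kinase activator Map2k6 (-2.35). The ribosomal protein list had 0 of 32 measured members past 2-fold, and its values ran from -0.21 to 0.17.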

How the data were processed

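RNA of each culture was labelled with an Affymetrix 3' IVT Express kit and measured on 1 array, per the labels' protocols. The authors processed the arrays with RMA, per the submitters' processing notes, with software and settings not given in the sources used here. Deposited values behave as log2 values centred on each probe set's median over the 3 arrays. That scale was taken from the values and from the use of RMA. Blank cells, the median array or a tie, were read as 0, and signal over background is unknown. Depth does not apply to arrays, and their number limits the precision.

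Of 31099 probe sets, 20832 had 1 gene in the platform annotation, 436 had several and named no gene, and 9831 were unnamed. The RefSeq table of GRCr8 gave current symbols by Entrez ID for 20764 probe sets. Probe sets of 1 gene were averaged. Genes were counted from a difference of 1 in size, and no test was run. The 67 gene lists, their members and the groups by role were chosen with earlier results of these data known. Of 2635 list entries 345 were not analysed here. Genes named, not all of which are printed, were the 40 largest differences each way (without symbols starting with LOC, RGD, MGC or AABR), genes with 3 or more probe sets all past 2-fold, and list members past 2-fold or among the 4 largest each way. Other list members and the genes next to the threshold were named after their values were seen. The same holds for the longer NF-kB form. On simulated data over 14218 genes, 200 of 200 genes changed 4-fold were recovered and 0 unchanged genes were called. The simulated noise was set below the spread of the added controls (SD 0.38). This result therefore checks the code and gives no error rate for the calls. Python 3.11.15, NumPy 2.4.6, pandas 2.3.3 and Matplotlib 3.10.9 were used.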

Additional observations from a re-analysis of the deposited data

How the results depend on the processing

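No paired analysis was possible because each medium has 1 array and the labels carry no replicate numbers. At 1.5-fold 1293 genes were higher and 991 lower, and at 3-fold 262 and 141. With only genes of several probe sets that all passed, 61 were higher and 38 lower. Taking medians over probe sets, the counts were 602 and 368, and with the probe set of the widest range 787 and 508. Without probe sets whose names end in _x_at, _s_at or _a_at they were 587 and 354. Restricted to probe sets valued on 2 arrays, they were 646 and 417. Setting the added controls to a mean of 0 gave 581 and 396, and the share of higher genes among those called went from 62.1% to 59.5%. Centring the arrays on their medians changed nothing, since each median is 0. Over 402 list medians under these settings 13 moved, all away from 0. A reversal of sign was counted only for lists with a median at least 1 in size. Just 2 lists had such a median, and 0 reversed, so changes of sign near 0 were not counted. Of the 13 medians that moved, 11 did so with the restriction to probe sets valued on 2 arrays and 2 with the widest range. The former keeps probe sets with values on any 2 of the 3 arrays, and drops 8002 with 1 value and 5980 with none. The latter takes each gene's most variable probe set. Both favour values away from 0, so the direction of these moves is no sign of robustness. Of 2480 values of 418 named genes 97 moved. The 2-fold call was lost by 11 named genes with the added controls at 0 and by 6 with medians. It was lost by 5 without probe sets of the suffixes named above and by 1 with the widest range. Aif1 reversed, to -0.21 without probe sets of those suffixes. The absence of replicates, the unknown signal level and the centring on 3 arrays are the main limits.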

Other observations

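Haemoglobin transcripts gave the lowest values of the table, on probe sets that the annotation pairs with several genes and that were therefore left out of the comparison. On 3 probe sets shared by several alpha-globin genes fibroblast-conditioned minus fresh medium was -8.77, -8.45 and -3.66, and on 2 shared by several beta-globin genes it was -6.60 and -4.36. For all 5 the fresh-medium array was the highest, from 0.95 to 1.09, and the myoblast array was at 0. Of 436 probe sets with several genes, 11 passed 2-fold above and 13 below, and the highest, at 2.90, is shared by genes of a multidrug transporter. The 9780 unnamed probe sets, without the array's own controls, had 208 past 2-fold above and 193 below, from -4.19 to 4.99.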
